A study of Homo sapiens with 6 samples.

Results

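STEAP1 was silenced in A673, an established cell line from a human Ewing tumor, and the transcripts of the cells were measured on Affymetrix Human Gene ST arrays. The samples were chosen by line and siRNA number alone: the A673 array with a control siRNA, the array with STEAP1 siRNA 2 and the array with STEAP1 siRNA 3, which are 3 of the 6 arrays of the study. The other 3 arrays hold the same design in SK-N-MC, a second Ewing tumor line, and were used for the spread between arrays and for 1 comparison between the lines. All cells received siRNA at 5 nM for 48 h in serum-containing medium, RNA was taken at 80% confluency, and 200 ng of RNA was labelled. The control siRNA is described as non-silencing and is not otherwise named. The A673 control sample carries the number 2 in its title, and what that number stands for is not stated. No label states that each array had its own culture, so a p-value here covers the spread among these arrays alone. That spread comes from siRNA 2 against siRNA 3 within each line. It mixes any difference between the siRNAs with variation that may be technical. A673 had 1 control array, so the spread between A673 control cultures is unknown, and each siRNA array is given with its own difference from that array.

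Ewing tumors carry a fusion of EWSR1 with an ETS gene, most often FLI1, whose product acts as a transcription factor that turns some genes on and others off. STEAP1 is a membrane protein with 6 predicted transmembrane helices, found at high levels in these tumors and in prostate cancer. It belongs to a family that moves electrons across membranes to reduce iron and copper, and STEAP1 itself lacks the part that binds NADPH in its relatives and is thought to work beside them. The study asked how the transcripts of Ewing tumor cells differ when STEAP1 is lowered, with an interest in redox state and invasion.

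Values are log2 of the deposited intensity, so a difference of 1 is a factor of 2, and 18417 genes with a name were compared. The A673 arrays had median intensities of 6.01 to 6.19, and a gene was called bright at a mean log2 of at least 4 over the 3 arrays (7430 genes) and dim below it (10987 genes). Of 8 markers of Ewing tumor cells 7 were measured, and their control levels lay between 3.92 and 10.1. Of 15 markers of leukocytes, endothelium, epithelium, muscle and melanocytes 14 were measured, and 0 of them reached 4 in any A673 array. The summed intensity of these 14 genes was 49.5 with the control siRNA, 49.7 with siRNA 2 and 51.8 with siRNA 3.

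STEAP1, on chromosome 7, was lower with both siRNAs. It lay at 6.23 with the control siRNA, 4.53 with siRNA 2 and 4.59 with siRNA 3. Both siRNA arrays lay far below the control and within 0.06 of each other. The differences were -1.70 and -1.64, which left 30.8% and 32.1% of the control intensity. The mean difference of -1.67 (SE 0.24, n = 2 siRNA arrays and 1 control array) was the largest of all genes in the lower direction, and it did not pass limma's test over all genes (adjusted p = 1.00). An exact permutation test of 2 arrays against 1 cannot go below p = 0.333, so such a test could not pass either. In bulk RNA, fewer cells with the transcript and less transcript per cell cannot be told apart. The promoter of the targeted gene, from 250 bases before to 50 after its start (RefSeq, GRCh38.p14, chr7:90154219-90154518, plus strand), is given here as the reference for the silenced locus. It held neither of the stress elements searched for further down, so no base is in capitals:
STEAP1: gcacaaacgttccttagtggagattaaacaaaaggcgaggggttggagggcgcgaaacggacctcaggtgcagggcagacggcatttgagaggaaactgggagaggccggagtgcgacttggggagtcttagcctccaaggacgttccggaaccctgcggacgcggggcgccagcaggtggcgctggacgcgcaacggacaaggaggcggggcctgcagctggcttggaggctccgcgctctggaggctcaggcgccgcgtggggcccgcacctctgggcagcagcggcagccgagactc

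The nearest relatives of STEAP1 differed less. STEAP1B, a partial copy of STEAP1 on the same chromosome, lay at 5.22 with the control siRNA, 4.57 with siRNA 2 and 5.06 with siRNA 3. Because the copies are alike in sequence, the array may not separate their transcripts fully. STEAP3, the reductase of endosomes that frees iron from transferrin, lay at 4.77, 4.39 and 4.15, so both siRNA arrays were lower, by -0.38 and -0.62. STEAP2 is a metalloreductase encoded beside STEAP1, and it lay at 6.84, 6.78 and 7.05, with the control between the siRNA arrays. STEAP4 was dim in all 3 arrays, at 1.29, 1.21 and 1.11. Around STEAP1 on 7q21, GTPBP10 (4.92 in the control array, differences 0.10 and 0.07) and CLDN12 (5.79, differences -0.18 and -0.07) had the control close to both siRNA arrays. The dim neighbour CFAP69 differed by 0.52 and 0.41 from 1.21, the largest mean difference among the listed neighbours. None of the 5 family genes or of the 6 genes listed around STEAP1 was called by limma.

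**Figure D1:**
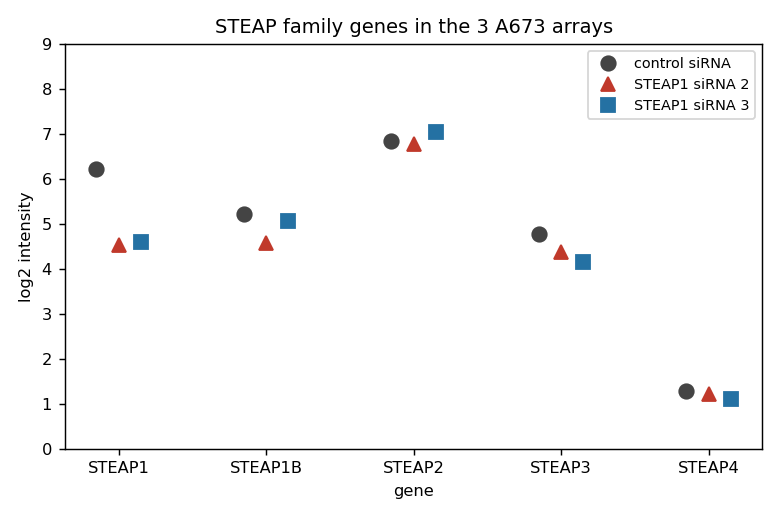
Log2 intensity of the 5 STEAP family genes (x axis) in the 3 A673 arrays (y axis), 1 point per array and no error bars, since each point is a single array. STEAP1 stands apart from the rest, at 6.23 in the control array against 4.53 and 4.59 with the siRNAs, while STEAP2 has the control between the siRNA arrays.

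Beyond STEAP1, few bright genes differed by 1.5-fold (0.58 on the log2 scale) with both siRNAs. Of 7430 bright genes 14 were at least 1.5-fold higher in both siRNA arrays (0.188%) and 9 were at least 1.5-fold lower in both (0.121%). The cut for bright genes uses the siRNA arrays too, so near the cut it favours genes that are higher with the siRNAs. ZNF626 and RNPC3, for example, lay at 3.66 and 3.36 in the control array and passed through their siRNA arrays. Counts of higher against lower bright genes are therefore not balanced. Over all 18417 genes the counts were 43 higher (0.233%) and 63 lower (0.342%). The 2 differences of a gene use the same control array, so they are not independent, and a low or high control value alone gives both siRNA arrays the same sign. The 43 higher genes were 20.9% of the 206 genes that siRNA 2 had past 1.5-fold higher (1.12% of all genes) and 23.0% of the 187 of siRNA 3 (1.02%). The 63 lower genes were 23.9% of the 264 of siRNA 2 (1.43%) and 22.3% of the 283 of siRNA 3 (1.54%). In 1 gene the arrays went past 1.5-fold in opposite directions. By any size, 5943 genes were higher in both siRNA arrays (32.3%) and 6095 were lower in both (33.1%).

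The siRNA arrays differed from each other by as much as either differed from the control. The standard deviation across genes was 0.246 for siRNA 2 minus siRNA 3, 0.242 for siRNA 2 minus control and 0.242 for siRNA 3 minus control. Between the siRNA arrays 513 genes differed by at least 1.5-fold (1.45% higher and 1.34% lower with siRNA 2), against 470 for each siRNA against the control. Of the 106 genes past 1.5-fold with both siRNAs 83 were dim, 23 were bright, and 0 had a mean log2 of at least 6. The limma fit over both lines called 0 genes higher (0.0%) and 0 lower (0.0%), with Benjamini-Hochberg adjustment over all genes. It gave 617 genes an unadjusted p under 0.05 where 5% of all genes is 921. Every gene named from here on for A673 had an adjusted p of 1.00 in this fit, so the differences are values of these arrays and not calls. Bright genes lay slightly higher with the siRNAs: the median difference was 0.02 for genes at or above 4 and 0.06 for those at or above 8, against -0.0028 for all genes.

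**Figure D2:**
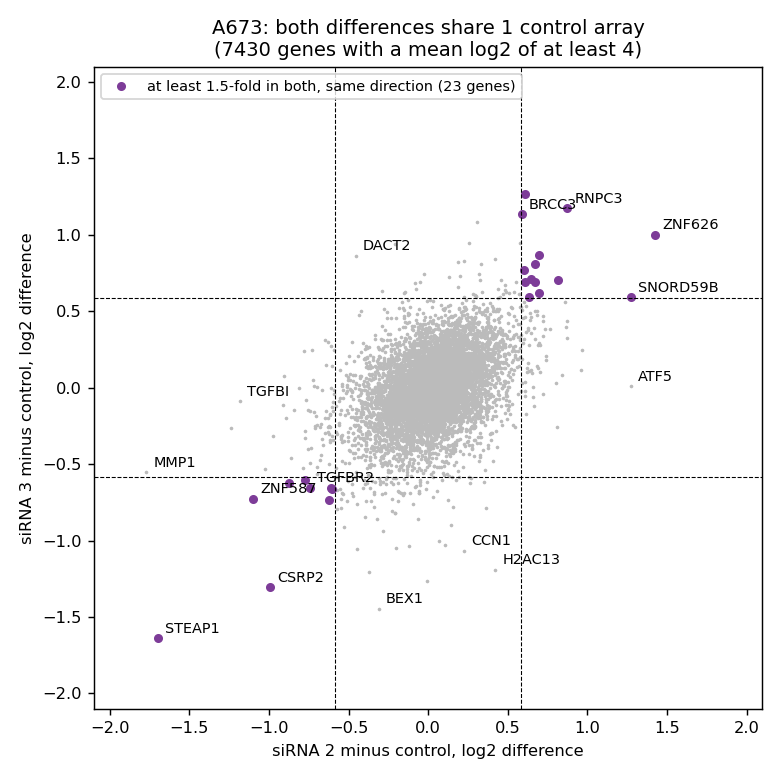
Log2 difference from the A673 control array with siRNA 2 (x axis) and with siRNA 3 (y axis) for 7430 bright genes, 1 point per gene, with dashed lines at 1.5-fold. The 23 purple genes pass 1.5-fold in both arrays, and STEAP1 lies lowest of these in both. MMP1, ATF5, BEX1 and H2AC13 differ from the control mainly in 1 array. The diagonal tilt of the cloud includes the control array that both axes share.

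Besides STEAP1, 8 bright genes were at least 1.5-fold lower with both siRNAs. CSRP2, a LIM-domain protein that binds actin, lay at 5.10 with the control siRNA, 4.11 with siRNA 2 and 3.80 with siRNA 3. The mean difference of CSRP2 was -1.15 (SE 0.22), and its siRNA arrays lay 0.31 apart. Apart from STEAP1, the bright genes named as lower or higher were picked for lying apart from the control in both siRNA arrays. That separation is therefore not a result. TGFBR2, the type II receptor of TGF-beta and a known repression target of the fusion, lay at 5.53, 4.79 and 4.88, with differences of -0.74 and -0.66 (SE of the mean 0.16). The zinc finger gene ZNF587 differed by -1.10 and -0.73 from a control level of 4.98. NEFL, the light neurofilament subunit, lay at 6.38 in the control array and differed by -0.77 and -0.60. STMN3, a stathmin that binds tubulin in neurons, differed by -0.60 and -0.66 from 5.41. POLR3G is a subunit of RNA polymerase III and differed by -0.62 and -0.74 from 5.43. DRC4, a part of the ciliary dynein regulatory complex, differed by -0.61 and -0.66 from 4.82. The read-through pseudogene PDXDC2P-NPIPB14P completes the 9, and it has close copies that the probes may not separate.

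A further 6 lower genes lay just short of 1.5-fold in 1 array. RAB8B and STX8, which act in vesicle traffic, differed by -0.58 and -0.79 and by -0.55 and -0.66. VAMP2, the synaptic vesicle SNARE, differed by -0.57 and -0.59. HBEGF, a ligand of the EGF receptor, differed by -0.70 and -0.57, and ERMP1, a peptidase of the endoplasmic reticulum, by -0.57 and -0.67. MMP1, the interstitial collagenase, was the brightest of the lower genes. It lay at 9.91 with the control siRNA, 8.14 with siRNA 2 and 9.36 with siRNA 3, so 29.3% and 68.3% of the control intensity remained. The siRNA arrays of MMP1 differed by 1.22, more than its mean difference of -1.16 (SE 0.44).

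The bright genes at least 1.5-fold higher with both siRNAs lay near the lower end of the bright range. ZNF626, a zinc finger gene, lay at 3.66 with the control siRNA, 5.09 with siRNA 2 and 4.66 with siRNA 3. Its other probe set was dim, at 1.88 in the control array, and differed by 0.08 on average, so the difference rests on 1 probe set. RNPC3, a protein of the minor spliceosome, differed by 0.87 and 1.17 from 3.36. Its other probe set, also dim at 1.82 in the control array, differed by 0.07. MRE11, the nuclease that resects DNA double-strand breaks, lay at 4.48 and differed by 0.60 and 0.77. BRCC3, a deubiquitinase of a BRCA1 complex, lay at 4.36 and differed by 0.59 and 1.13. TMEM70, which helps to assemble ATP synthase, lay at 4.13 and differed by 0.67 and 0.69. SURF1, which helps to assemble cytochrome c oxidase, lay at 4.06 and differed by 0.61 and 0.69. KCTD9 differed by 0.67 and 0.81, RNF146, a ubiquitin ligase that recognises poly-ADP-ribose, by 0.65 and 0.71, and the RNA helicase DDX51 by 0.70 and 0.62.

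Several of the higher genes have near-identical copies or are very short, and their values are uncertain for that reason. ARHGAP11B, a partial copy of ARHGAP11A, lay at 4.82 with the control siRNA, 5.64 with siRNA 2 and 5.52 with siRNA 3. H3C8, a histone H3 gene of a large gene cluster, differed by 0.58 and 0.94 from 4.56, just short of 1.5-fold with siRNA 2. HTATSF1P2 and CES1P1 are pseudogenes, PCDHA7 shares exons with its neighbours, and SNORD59B is a small nucleolar RNA. Their differences lay between 0.59 and 1.27 in every siRNA array. All 15 genes named as higher had control levels between 3.36 and 4.98.

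**Figure D3:**
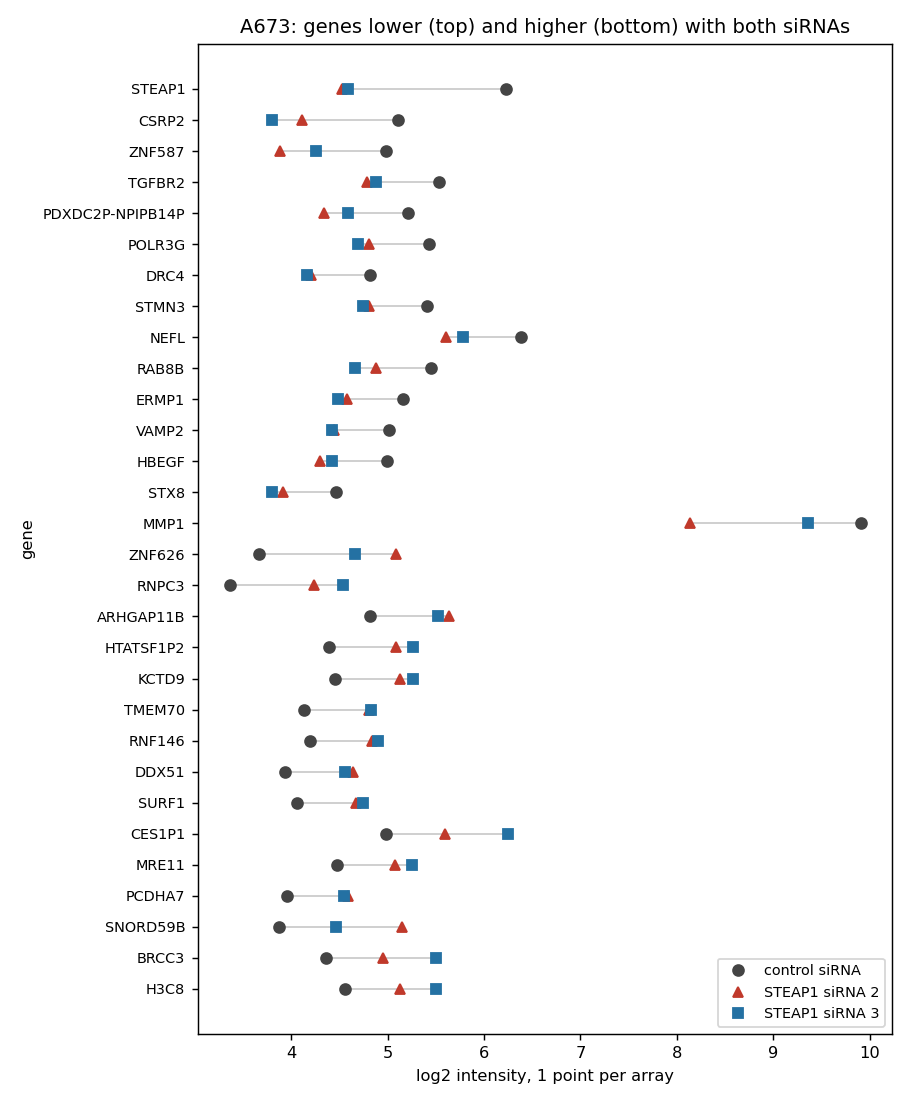
Log2 intensity (x axis) of the 15 bright genes lower and the 15 higher with both siRNAs (y axis), 1 point per A673 array, with a grey line over the range of each gene. STEAP1 has the widest gap between the control and both siRNA arrays. In MMP1 the siRNA arrays stand 1.22 apart.

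Of 10987 dim genes 29 were at least 1.5-fold higher with both siRNAs (0.264%) and 54 at least 1.5-fold lower (0.491%). LYRM9 lay at 2.34 with the control siRNA, 0.99 with siRNA 2 and 1.01 with siRNA 3, and had the smallest unadjusted p of all genes. GRAP, an adaptor of the GRB2 family, lay at 2.54, 1.28 and 1.29, and the pseudogene OR1F2P at 2.77, 1.25 and 1.62. Higher dim genes were the histone gene H2AC8 at 2.95, 4.33 and 4.09, ZBTB42 at 2.27, 3.35 and 3.52, and TRIM59 at 2.27, 3.52 and 3.22. These 6 genes were picked for lying apart from the control in both siRNA arrays, so that separation is not a result. LYRM9 and OR1F2P lay on the opposite side of their control in SK-N-MC.

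Gene lists were read by how many members were higher or lower in both arrays, beside the same share of all genes (32.3% higher and 33.1% lower by any size) and of bright genes (37.2% and 26.6%). Of 558 listed genes 520 were measured. In each of the 30 lists limma called 0 members, and 23 lists held no gene past 1.5-fold with both siRNAs. The medians of the lists other than the STEAP family lay between -0.17 and 0.18.

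Genes of redox defence and of metal handling, the chemistry of the STEAP family, lay close to the control. Of 28 antioxidant genes 6 were higher in both siRNA arrays, 11 lower and 11 differed in sign, with a median difference of -0.04. Superoxide dismutase SOD1 lay at 8.51, 8.46 and 8.35, and catalase CAT at 5.07, 5.39 and 5.09. Among thioredoxin-type proteins, GLRX differed by -0.34 and -0.39 from 5.54, and TXN by -0.17 and -0.27 from 7.67. NQO1, a quinone reductase and target of NRF2, lay at 5.07, 4.46 and 4.81, while HMOX1, another NRF2 target, was dim at 2.48, 2.35 and 2.53. Glutathione reductase GSR lay at 8.57 in the control array and differed by 0.02 and -0.36, so only siRNA 3 was lower. In the 26 iron, copper and heme genes 8 were higher, 6 lower and 12 differed in sign, with a median of -0.00. The transferrin receptor TFRC differed by 0.22 and 0.24 from 8.22, and the ferritin light chain FTL by -0.29 and -0.17 from 8.03. Of 23 respiratory chain genes 8 were higher and 4 lower, from NDUFV2 of complex I (-0.48 and -0.30) to ATP5F1A of ATP synthase (0.24 and 0.41). The 25 glycolysis and hypoxia genes had 11 higher and 6 lower members, among them VEGFA at 5.25, 5.56 and 5.66.

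Matrix proteases were mixed, and MMP1 was the brightest of them. Of 26 proteases and inhibitors 7 were higher in both arrays, 9 lower and 10 differed in sign, with a median of -0.04. The stromelysins MMP3 and MMP10, neighbours of MMP1 on chromosome 11, were dim and lower with both siRNAs, by -0.94 and -0.42 and by -0.87 and -0.44. In all 3 genes siRNA 2 was lower than siRNA 3. MMP14, the membrane collagenase, lay at 4.62, 4.36 and 5.11, with the control between the siRNA arrays. The sheddase ADAM9 lay at 7.47, 7.74 and 7.78, and the inhibitor TIMP1 at 9.64, 9.26 and 9.41. TIMP3, another inhibitor, differed by -0.15 and -0.33.

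TGF-beta pathway genes were more often lower than higher. Of 22 members 2 were higher in both arrays and 11 lower. The median was -0.17 for the mean of both arrays, -0.12 for siRNA 2 and -0.08 for siRNA 3, and TGFBR2 was the 1 member past 1.5-fold. Among ligands, TGFB1 lay at 5.38, 5.50 and 5.31, and the dim TGFB3 differed by -0.42 and 0.09, TGFB2 by -0.02 and -0.32 and BMP4 by 0.07 and 0.31. Among receptors, ENG differed by -0.50 and -0.17 from 5.01 and BMPR2 by 0.06 and -0.08 from 5.64. The inhibitory SMAD6 differed by -0.32 and -0.24 from 5.13. Targets included TGFBI, which lay at 6.83, 5.64 and 6.74 and so was low with siRNA 2 alone, and ID1 at 4.47, 4.29 and 4.29.

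Adhesion, matrix and contractile genes were mixed. Of 23 integrin and focal adhesion genes 4 were higher and 8 lower, and 11 differed in sign. CAV1 of caveolae lay at 10.22, 9.66 and 10.33, and fibronectin FN1 at 9.85, 9.50 and 10.05, so siRNA 2 was lower and siRNA 3 higher than the control in both. TNC, a matrix glycoprotein, differed by -0.35 and -0.16 from 7.55, and ITGB5 by -0.32 and -0.11 from 6.29. Of 19 collagen genes and modifiers 4 were higher and 5 lower. COL1A2 lay at 6.80, 6.74 and 7.48, higher with siRNA 3 alone, and COL18A1 at 4.39, 3.80 and 4.05. LOX, the dim collagen crosslinker, was past 1.5-fold higher, at 2.40, 2.99 and 3.09. In the 14 contractile genes 5 were higher and 5 lower. TPM2, a tropomyosin, lay at 5.25, 4.70 and 4.46 and smooth-muscle actin ACTA2 at 6.31, 6.05 and 5.72, both lower with both siRNAs as CSRP2 was. CSRP1, the close relative of CSRP2, was higher, at 8.03, 8.11 and 8.30.

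Early-response and ERK-feedback genes had shares of lower members near that of all genes. Their shares of higher members were smaller than that of all genes. Of 15 immediate early genes 3 were higher and 6 lower, with medians of -0.05 for siRNA 2 and -0.17 for siRNA 3. EGR1 lay at 5.10, 4.72 and 4.52 and CCN2 at 4.98, 4.73 and 4.49. FOS lay at 4.17, 4.27 and 3.61, and CCN1 at 4.97, 5.20 and 3.91, so these genes were low with siRNA 3 alone. Of 14 ERK-feedback genes 1 was higher in both arrays and 5 lower. The ETS factor ETV5 (differences 0.03 and -0.71 from 5.39) and the inhibitor SPRY4 (0.10 and -0.57 from 4.02) had the same pattern, while the phosphatase DUSP6 lay at 7.77, 7.62 and 7.78.

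Of the cell cycle and sterol lists, sterol synthesis had the largest share of genes higher in both arrays. Of 22 replication genes 13 were higher in both arrays and 3 lower, with a median of 0.05, and of 22 mitotic genes 9 were higher and 2 lower, a share of higher genes near that of all bright genes. The mitotic median was 0.12 with siRNA 2 and -0.02 with siRNA 3, so its sign depends on the array. CDT1, which licenses replication origins, lay at 5.79, 6.20 and 6.18, and the ribonucleotide reductase subunit RRM2 at 6.73, 7.01 and 7.05. Cyclin CCNB1 lay at 8.63, 8.98 and 8.89 and the mitotic kinase PLK1 at 8.13, 8.50 and 8.36. MKI67, a marker of cycling cells, lay at 7.55, 7.94 and 7.42, with the control between the siRNA arrays. Of 16 genes of sterol and fatty acid synthesis 12 were higher in both arrays and 0 were lower in both, with a median of 0.12. HMGCS1, an early enzyme of the pathway, lay at 8.08, 8.54 and 8.25, MSMO1 at 8.11, 8.38 and 8.36, and the regulator INSIG1 at 6.72, 7.06 and 6.92. All 16 were bright, and bright genes as a whole lay slightly higher.

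Activated targets of the fusion were as often higher as lower, and repressed targets more often lower. EWSR1 differed by -0.00 and 0.09 from 7.40 and FLI1 by 0.12 and 0.11 from 3.92. Of 18 genes known to be activated by EWSR1-FLI1 5 were higher and 5 lower, with a median of 0.01. SOX2 lay at 6.40, 6.53 and 6.52, and PPP1R1A, a phosphatase inhibitor, at 6.49, 6.30 and 6.11. Of 11 genes known to be repressed 2 were higher and 6 lower, with TGFBR2 lower and LOX higher. Only 4 of these 11 genes were bright, and dim genes as a whole lay slightly lower (median -0.02). The surface marker CD99 lay at 10.09, 10.21 and 10.25.

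Interferon-response genes were low in the A673 control array. Their median control level was 2.57, and of 35 measured members 7 were higher, 18 lower and 10 differed in sign, with medians of -0.08 and -0.07 for siRNA 2 and siRNA 3. The antigen-processing genes PSMB9 (3.66, 3.14 and 3.05) and B2M (9.35, 8.93 and 9.16) and the antiviral gene OAS1 (4.79, 4.18 and 4.43) were lower with both siRNAs. The dim genes IFI27 (differences 0.52 and 1.00) and ISG15 (0.37 and 0.40) were higher with both. Replication-dependent histone genes, which have near-identical copies, had 10 higher and 18 lower members of 37. Of 13 genes of the small-RNA machinery 6 were higher and 1 lower: DROSHA lay at 5.37, 5.64 and 5.79, and DICER1 at 6.27, 5.77 and 6.32. Of 14 lysosomal genes 4 were higher and 4 lower. The ganglioside activator GM2A was past 1.5-fold lower, at 3.74, 3.06 and 2.58, and is dim by its mean. The p53, NF-kB, WNT and IGF lists held between 12 and 19 measured members, with medians from -0.03 to 0.04. The reference genes GAPDH (11.85, 11.71 and 11.77) and ACTB (11.10, 11.27 and 11.12) differed by at most 0.17 in size, while HPRT1 differed by -0.11 and -0.42 and PPIA by 0.01 and -0.27.

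Genes of the ATF4 and unfolded protein response were more often higher than lower, and higher with siRNA 2 than with siRNA 3. This response follows stress of the endoplasmic reticulum or lack of amino acids: ATF4 binds composite elements in the promoters of its targets, and ATF6 acts on the ER stress response element of chaperone genes. Promoters were searched on both strands for TGATGNAA (the ATF4 composite element) and for the ER stress response element. The latter is CCAAT and CCACG with 9 bases of any kind between them. No other form of either element was searched for. To show these sites, the windows of 3 bright members that hold a match are printed. Each printed window below holds 1 match, so the motifs do not overlap there. All windows run from 250 bases before to 50 after the gene start and are printed 5' to 3' on the gene's strand, with the match in capitals (RefSeq, GRCh38.p14). HERPUD1, which helps to clear misfolded proteins, is at chr16:56931892-56932191 (plus strand), with the match 176 bases before the start on the other strand. ASNS, asparagine synthetase, is at chr7:97872359-97872658 (minus strand), and HSPA5, the main chaperone of the endoplasmic reticulum, at chr9:125241294-125241593 (minus strand):
HERPUD1: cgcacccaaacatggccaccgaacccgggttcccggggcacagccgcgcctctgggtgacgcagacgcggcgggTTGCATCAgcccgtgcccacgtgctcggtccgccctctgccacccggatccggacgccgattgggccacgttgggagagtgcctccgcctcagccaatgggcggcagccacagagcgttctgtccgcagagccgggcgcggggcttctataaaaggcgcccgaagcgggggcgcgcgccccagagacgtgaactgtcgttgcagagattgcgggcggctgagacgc
ASNS: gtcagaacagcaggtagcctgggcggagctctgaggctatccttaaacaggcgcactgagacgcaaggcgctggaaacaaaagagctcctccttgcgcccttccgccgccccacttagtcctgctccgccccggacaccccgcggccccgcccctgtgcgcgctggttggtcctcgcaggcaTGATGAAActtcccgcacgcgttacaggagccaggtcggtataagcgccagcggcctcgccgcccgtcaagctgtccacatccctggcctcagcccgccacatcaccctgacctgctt
HSPA5: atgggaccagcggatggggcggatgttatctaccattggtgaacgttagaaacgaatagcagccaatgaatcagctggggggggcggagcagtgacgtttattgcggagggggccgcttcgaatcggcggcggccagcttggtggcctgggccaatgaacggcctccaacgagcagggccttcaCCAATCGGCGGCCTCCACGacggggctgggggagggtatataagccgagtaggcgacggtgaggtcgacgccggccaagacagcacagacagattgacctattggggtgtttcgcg

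Over 27305 promoters of this length the composite element stood in 1003 (3.67%) and the ER stress response element in 22 (0.0806%). Among the 23 promoters of listed ATF4 and unfolded protein response genes in the table, 5 held the composite element (ATF3, ASNS, CHAC1, SLC3A2 and HERPUD1) and 4 the other (XBP1, HSPA5, HSP90B1 and CALR). The list was made of genes already known for this response, so its larger shares are not a result about these data. A match is a description of letters and not evidence of binding in these cells. In expression, HERPUD1 lay at 6.28 with the control siRNA, 7.24 with siRNA 2 and 6.52 with siRNA 3, higher in both and mostly in the first. HSPA5 lay at 9.26, 9.59 and 9.43. ASNS lay at 5.85, 6.34 and 5.80, higher with siRNA 2 only. ATF4 itself lay at 7.71, 7.93 and 7.64. Of the 27 genes 14 were higher in both arrays, 1 was lower in both and 12 differed in sign, with medians of 0.25 for siRNA 2 and 0.02 for siRNA 3. By role, 6 of 7 chaperone genes were higher in both arrays and DNAJB9 was lower in both. Serine and one-carbon enzymes included SHMT2 (7.47, 7.79 and 7.69) and PHGDH (8.10, 8.50 and 8.21). CHAC1, a glutathione-degrading enzyme, lay at 3.34, 3.78 and 3.52, and DDIT3, which promotes cell death under stress, at 5.13, 5.22 and 4.53.

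**Figure D4:**
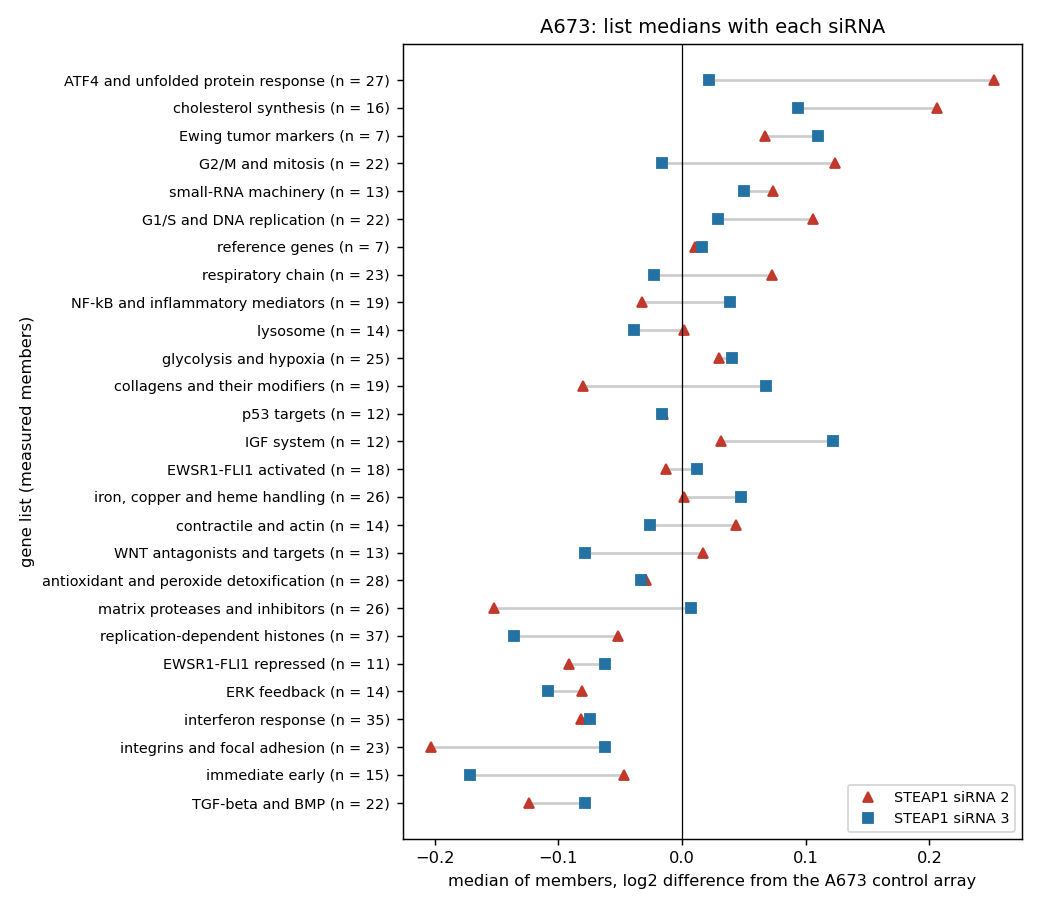
Median log2 difference from the A673 control array over the measured members of each gene list (x axis), with siRNA 2 as triangles and siRNA 3 as squares, and a grey line between them. No error bars are drawn, since each point is a median from 1 array against 1 control. The ATF4 and unfolded protein response list stands at 0.25 with siRNA 2 and at 0.02 with siRNA 3.

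Comparing the siRNA arrays with each other leaves the control array out. Over all genes siRNA 2 was above siRNA 3 in 48.1%, and over bright genes in 53.4%. Of bright genes 121 were at least 1.5-fold higher with siRNA 2 (1.63%) and 84 at least 1.5-fold lower (1.13%). In the ATF4 and unfolded protein response list 24 of 27 genes were higher with siRNA 2 than with siRNA 3, and in the collagen list 4 of 19. With 1 array per siRNA, these differences have no replicate check in A673. ATF5, a transcription factor of the same stress response that is not in the list, lay at 4.43 with the control siRNA, 5.70 with siRNA 2 and 4.44 with siRNA 3. DACT2, a WNT regulator, lay at 4.04, 3.59 and 4.91, with the control between the siRNA arrays. LIPA, the lysosomal acid lipase, lay at 5.58, 4.34 and 5.32, and in SK-N-MC it also differed more with siRNA 2 (-2.80) than with siRNA 3 (-0.72). Not every gene kept its order there: ATF5 differed by -0.41 and -0.29 in SK-N-MC, and MMP1 by -0.51 and -0.71. The SK-N-MC medians of the ATF4 and unfolded protein response list were -0.04 and -0.01. How many genes kept their order in SK-N-MC was not counted. BEX1 (differences -0.31 and -1.44 from 6.17), ATP1B3 (6.37 with siRNA 2 and 5.29 with siRNA 3), a sodium pump subunit, and SEC24D (0.10 and -1.03), a coat protein of vesicles, were low with siRNA 3. H2AC13, H2BC8, TCEAL9, LCE3B, EPM2AIP1, HSD17B7P2 and STX12 complete the 8 bright genes furthest apart in each direction, and 5 bright genes differed by more than MMP1 did.

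**Figure D5:**
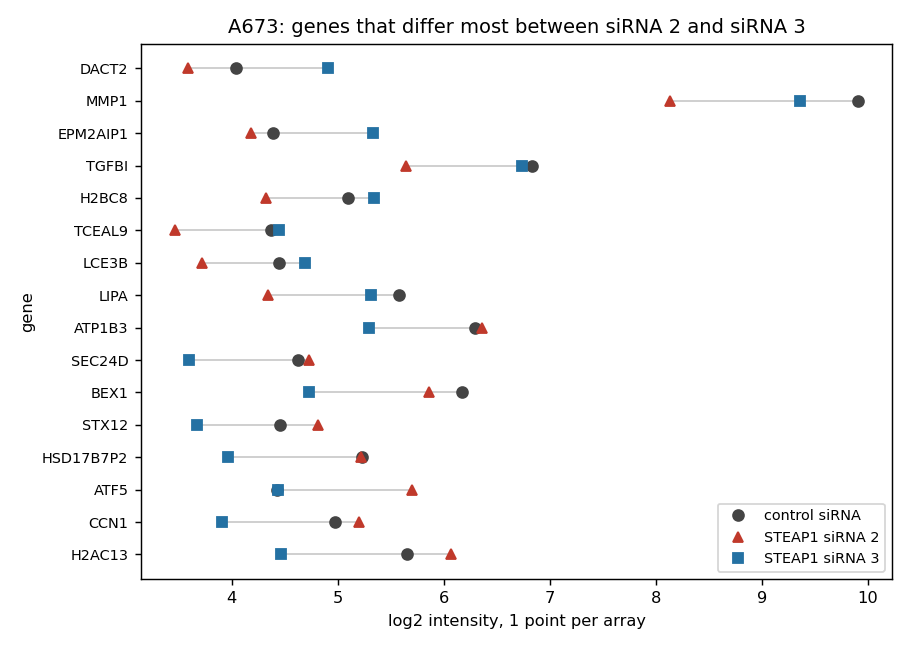
Log2 intensity (x axis) of the 8 bright genes lowest and the 8 highest with siRNA 2 relative to siRNA 3 (y axis), 1 point per A673 array. In ATF5 the siRNA 3 array lies on the control at 4.44, and in TGFBI it lies close to the control at 6.74.

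The response was set against that of SK-N-MC in the same fit as a difference of differences. Limma called 0 genes (0.0%), with 711 genes at an unadjusted p under 0.05 and a lowest adjusted p of 0.508. Leaving out siRNA 3 of SK-N-MC gave 26 calls, where the lone SK-N-MC siRNA array is assumed to vary like the others. CSRP2 differed by 0.33 and 0.65 in SK-N-MC against -0.99 and -1.31 in A673, the largest gap in the lower direction among bright genes (-1.64). NEFL differed by 0.36 and 0.75 in SK-N-MC against -0.77 and -0.60 in A673. Its control level was low in SK-N-MC, at 2.59, against 6.38 in A673. TMEM70 was higher in all 4 siRNA arrays, by 0.45 and 0.62 in SK-N-MC. In the upper direction the largest gaps among bright genes were in IFIT5, USP18, DTX3L, OAS3 and TAP1, interferon-response genes. Dim genes had larger gaps in both directions. Over the measured interferon list the median difference in SK-N-MC was -2.44 with siRNA 2 and -1.12 with siRNA 3, against -0.08 and -0.07 in A673. The median control level of this list in A673 was only 2.57. Control levels of OAS1 were 4.79 in A673 and 8.39 in SK-N-MC, while those of B2M were alike (9.35 and 9.13). STEAP1 itself differed by -2.98 and -2.42 in SK-N-MC, from a control level of 7.15, against -1.70 and -1.64 in A673. Whether the starting level or the depth of silencing accounts for the gap between the lines was not tested.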

How the data were processed

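The deposited intensities, on a linear scale, come from RMA, which the authors ran in version 1.1 of Affymetrix Expression Console according to the submitters' processing notes, and how they left the log2 scale was not given. Log2 was taken with no further normalization, so low values carry no stated floor and no detection calls were used. Of 33297 probe sets 19460 had 1 gene symbol in the platform annotation, 1754 had several and 12083 are unnamed here; symbols of 19429 were updated by gene identifier through RefSeq. The brightest probe set stood for each of 18417 genes.

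Limma 3.58.1 in R 4.3.3 fitted 4 group means on all 6 arrays (2 residual degrees of freedom, the spread coming from the siRNA pairs of both lines), two-sided, with Benjamini-Hochberg adjusted p under 0.05. The fit was tested on simulated data. The number of arrays limits the precision. Members and gene lists were chosen with earlier results of these data known. Named genes are the STEAP family, the 15 bright genes in each direction by the smaller of both differences, the 3 dim ones, up to 2 genes per list by the same measure (or those past 1.5-fold), the 8 in each direction by the siRNA difference, the 5 by line difference, and reference and marker genes. Other list members were named for their role after their values were seen. Alternatives were a pseudocount, other folds and filters, other normalizations, other fits and leaving out arrays. Motifs were counted with Python 3.11.15.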

Additional observations from a re-analysis of the deposited data

Results flagged for a closer look

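In 27 of 98 named genes and 5 of 29 gene lists, both A673 siRNA arrays lay on one side of their control and both SK-N-MC siRNA arrays on the other side of theirs. Many of these genes were named because their A673 differences agreed in sign. CSRP2, ZNF587, NEFL and TMSB4XP2 were also named for their gap between the lines. The share of all genes with this pattern was not counted, so the counts are not a result about the named genes. The values here are A673 differences minus SK-N-MC differences on the log2 scale. For the genes the difference was tested with limma and did not pass, with adjusted p from 0.738 (OR1F2P) and 0.807 (LYRM9) to 1.00, and for the lists the difference was not tested.

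Differences from control, and not levels, are compared here. The difference was lower in A673 than in SK-N-MC for CSRP2 (-1.64), ZNF587 (-1.37), NEFL (-1.24), STEAP3 (-0.75), CCN2 (-0.58), NDUFV2 (-0.49) and ETV1 (-0.24). The pseudogenes TMSB4XP2 (-1.34) and OR1F2P (-2.04) and the dim gene LYRM9 (-1.53) were in the same group. Several of these genes lay under 4 in the SK-N-MC control array, among them NEFL (2.59), TMSB4XP2 (2.95) and ETV1 (1.41).

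The difference was higher in A673 than in SK-N-MC for SNORD59B (1.60), ARHGAP11B (1.33), HTATSF1P2 (1.04), H3C8 (0.93), PCDHA7 (0.92), DDX51 (0.86) and MRE11 (0.82). Of these, H3C8 (1.91) and PCDHA7 (3.88) lay under 4 in the SK-N-MC control array. The matrix and adhesion genes LOX (0.79) and ILK (0.59), the sterol genes MSMO1 (0.66) and INSIG1 (0.42), RRM2 (0.53) and IGFBP4 (0.51) followed. The differences of the Ewing tumor markers NKX2-2 (0.56) and PRKCB (0.42) and of the reference genes ACTB (0.23) and TBP (0.17) were also higher.

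Among list medians the gaps were 0.25 for cholesterol synthesis, 0.23 for Ewing tumor markers, 0.16 for the ATF4 and unfolded protein response, 0.09 for glycolysis and hypoxia and 0.04 for reference genes.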

How the results depend on the processing

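Limma called 0 genes in A673 under each alternative it was run with, and STEAP1 was lower in each, at -1.39 with a pseudocount of 8 and at -1.70 to -1.64 when 1 array was left out. Its adjusted p was 0.342 from the A673 arrays alone. The fit with the siRNA number as a replicate block also left 0 genes called (STEAP1 adjusted p = 0.692). Arrays of both lines with 1 number share only the siRNA, and the block changed no call. The counts past 1.5-fold in both siRNA arrays (43 higher and 63 lower) became 2 and 3 with the pseudocount, 14 and 9 in bright genes, 102 and 151 at 1.4-fold and 2 and 7 at 2-fold. Without siRNA 2 or siRNA 3 they were 187 to 206 higher and 264 to 283 lower, since 1 array then decides. The standard deviation between the siRNA arrays was 0.153 with the pseudocount. For the difference between lines, 0 to 26 genes were called when 1 array was left out. The 26 calls came without SK-N-MC siRNA 3, where the lone SK-N-MC array is assumed to vary like the others. Without A673 siRNA 3 the sign turned, over leaving out each array, for STEAP2 (-0.058 to 0.21), PPIA (-0.27 to 0.011), EWSR1 (-0.0007043 to 0.094), LIPI (-0.10 to 0.40), LARP6 (-0.90 to 0.14) and USP18 (-0.17 to 0.051). Of 60 list medians with 1 array left out 27, in 21 of the 30 lists, moved by more than the spread between the siRNA arrays.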

Other observations

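Probe sets that the platform annotation used here does not list differed more between the A673 arrays than named ones. Of 12083 such probe sets 329 were at least 1.5-fold higher and 316 at least 1.5-fold lower with both siRNAs, which is 5.34% together. Of 19460 probe sets with 1 gene symbol 0.601% did so, and of 1754 with several symbols 1.03%. The unlisted probe sets also differed more between siRNA 2 and siRNA 3, with a standard deviation of 0.421 against 0.249 for those with 1 symbol. They were 11.3% past 1.5-fold between the siRNA arrays. Among unlisted probe sets with a mean log2 of at least 4, 95 were higher and 45 lower with both siRNAs.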
